A study of Homo sapiens with 10 samples.

Results

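The metallothionein genes MT1X and MT2A were followed in 10 clones of PC-3, an established human line grown from a bone metastasis of a prostate cancer. They are 2 of the 11 metallothionein genes that had a named probe set, and 2 of 14884 named genes in all. Rows of the deposited table were taken by gene symbol, and the row of highest mean over the clones was to be used for each gene, but MT1X and MT2A each had 1 row. Both genes were picked because they were lower in CENPU clones in these same arrays, so their levels and differences are given as a description. Where their calls are given, these follow from that choice and are no test of them.

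The clones fall into 2 groups. The CENPU group has 5 clones, numbered 1, 4, 5, 7 and 13, that carry CENPU, which encodes a centromere protein, in a p-Lenti lentiviral vector. The control group has 5 clones, numbered 1 to 5, that carry the same vector empty. All 10 had been selected with blasticidin and grown out as clonal isolates, with 1 array per clone, so each group value rests on single-cell-derived populations that can differ for reasons unrelated to the insert. RNA of a whole culture was measured, in which fewer expressing cells and less RNA per cell cannot be told apart.

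Metallothioneins are small, cysteine-rich proteins that bind zinc and copper and take up toxic metals such as cadmium. Their genes lie in a cluster on chromosome 16 and are switched on by MTF1, a transcription factor that binds zinc and then attaches to short metal response elements (MREs) in their promoters. Glucocorticoids, cytokines and oxidative stress also induce MT2A and several MT1 genes. Normal prostate epithelium accumulates unusually high zinc, and this property is lost in prostate cancer.

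The promoters of both genes are shown because the copies of the MRE core are the sequence feature that MT1X and MT2A share and by which MTF1 acts. MT1X occupies bases 56682470 to 56684196 of chromosome 16 and MT2A bases 56608584 to 56609497, both on the plus strand in the RefSeq annotation of GRCh38.p14. Each window runs from 250 bases before to 50 bases after the start of the gene, in the RefSeq sequence of GRCh38.p14, at chr16:56682220-56682519 for MT1X and chr16:56608334-56608633 for MT2A. Capitals mark matches to the MRE core, TGCACNC or TGCGCNC, on either strand.
MT1X promoter: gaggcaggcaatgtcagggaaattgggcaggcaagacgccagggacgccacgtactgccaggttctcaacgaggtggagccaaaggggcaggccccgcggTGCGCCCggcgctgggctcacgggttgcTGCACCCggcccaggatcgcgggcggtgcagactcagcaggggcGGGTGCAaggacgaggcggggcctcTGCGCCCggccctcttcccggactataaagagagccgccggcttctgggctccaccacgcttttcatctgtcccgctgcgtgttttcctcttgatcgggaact
MT2A promoter: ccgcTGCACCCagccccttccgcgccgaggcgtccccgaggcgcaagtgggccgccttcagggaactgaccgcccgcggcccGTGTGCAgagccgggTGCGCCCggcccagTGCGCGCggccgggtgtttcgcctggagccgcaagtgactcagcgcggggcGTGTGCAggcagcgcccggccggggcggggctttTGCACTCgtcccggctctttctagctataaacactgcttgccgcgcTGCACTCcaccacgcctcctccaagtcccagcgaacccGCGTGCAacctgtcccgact

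The MT1X window held 4 MRE cores, beginning at bases -150, -122, -78 and -53 from the start site. In the MT2A window 8 cores were found, at -246, -168, -153, -139, -88, -54, -8 and 31. At least 1 core occurred in 29.6% of 35116 promoters of this length, at least 4 in 0.601% and at least 8 in 0.0199%. Both windows also held 1 TATA box (TATAAA), at -30 in MT1X and -29 in MT2A, against 11.5% of promoters, and 2 GC boxes (GGGCGG on either strand) each, a number that 26.7% of promoters reach. One GC box of MT1X, at -82, overlapped the MRE core at -78.

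An AP-1 site (TGANTCA) stood at -104 in MT2A, overlapping a match to the NRF2 core (TGACNNNGC) at the same base, while MT1X had no AP-1 match and an NRF2 core match at -243. Of all promoters, 7.71% held an AP-1 match and 13.3% an NRF2 core match. Neither window matched the E-box CACGTG, found in 7.26% of promoters, or the glucocorticoid receptor half-site AGAACA, found in 14.8%. These matches are letters within a window, not bound sites. Promoters of 5 metallothionein genes were in the sequence table. The aligned MT1X window was 55.6% identical to that of MT2A, 64.2% to that of MT1H and 62.6% to that of MT1B, and MT1H had 8 MRE cores, MT1B 3 and MT4 3.

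**Figure D1:**
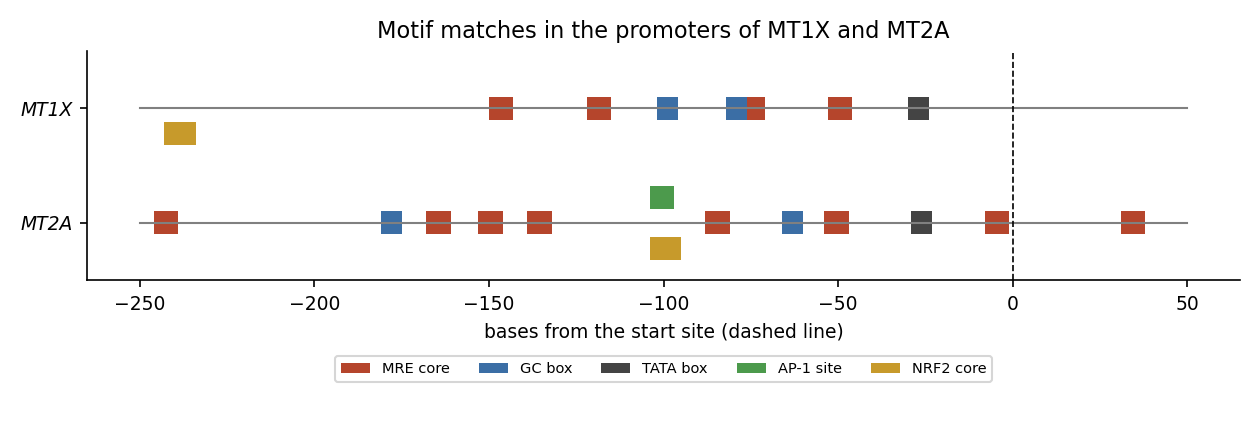
Motif matches in the promoter windows of MT1X (above) and MT2A (below), by distance in bases from the start site, which is the dashed line. Each block is 1 match on either strand, with MRE cores in red; MT2A has 8 of them and MT1X 4, and both genes have a TATA box within 30 bases of the start.

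MT1X, an MT1 isoform that many epithelial lines express, was 2.60-fold lower in CENPU clones than in control clones. On the log2 scale of the deposited values CENPU clones 1, 4, 5, 7 and 13 read 9.23, 8.98, 8.60, 8.44 and 8.27. Control clones 1 to 5 read 9.76, 10.58, 10.46, 9.89 and 9.71. CENPU 13 was the lowest clone and control 2 the highest, and the groups did not overlap, with 0.48 between CENPU 1 and control 5. The means were 8.70 ± 0.40 in CENPU clones and 10.08 ± 0.41 in control clones (SD, n = 5 each), which differ by -1.38 (SE 0.22 in limma).

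MT2A, the isoform most used as a marker of metal and glucocorticoid response, was 1.49-fold lower in CENPU clones. CENPU clones 1, 4, 5, 7 and 13 had 9.98, 9.78, 9.45, 9.44 and 9.61, and control clones 1 to 5 had 10.11, 10.18, 10.28, 10.29 and 10.29. CENPU 1 came within 0.12 of control 1, the nearest clones of the groups, which did not overlap. Means were 9.65 ± 0.23 in CENPU clones and 10.23 ± 0.08 in control clones (SD, n = 5 each), which differ by -0.58 (SE 0.11).

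The genes varied differently among clones of the same group. Between the lowest and highest clone, MT1X spanned 1.95-fold among CENPU clones and 1.82-fold among control clones, whereas MT2A spanned 1.45-fold and 1.14-fold. MT1X minus MT2A, a difference of log2 values within each array, averaged -0.95 ± 0.24 in CENPU clones and -0.15 ± 0.41 in control clones (SD, n = 5 each). This within-array difference was 0.80 lower in CENPU clones, a description of these 2 probe sets. They are not on a common scale of abundance, and neither gene can be called the more abundant from these values.

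Both genes were among the genes that passed as lower in CENPU clones (limma, Benjamini-Hochberg adjusted p under 0.05 over all named rows), which made up 4.79% of all genes, and among those lower without overlap of the groups, 5.19% of all genes. That membership follows from how they were picked. Neither gene passed with the span score described below as a covariate, and MT1X but not MT2A passed without CENPU 7, CENPU 13 and control 2. MT1X had the tenth lowest log2 difference of the 14884 genes, rank 10, and MT2A stood at rank 314. Among the 2432 genes with a mean of at least 8 they ranked 3 and 159 from the lowest, and the median log2 difference of those genes was -0.05, with 343 of them lower (14.1%). Leaving out any 1 clone gave differences between -1.51 and -1.25 for MT1X and between -0.66 and -0.52 for MT2A.

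**Figure D2:**
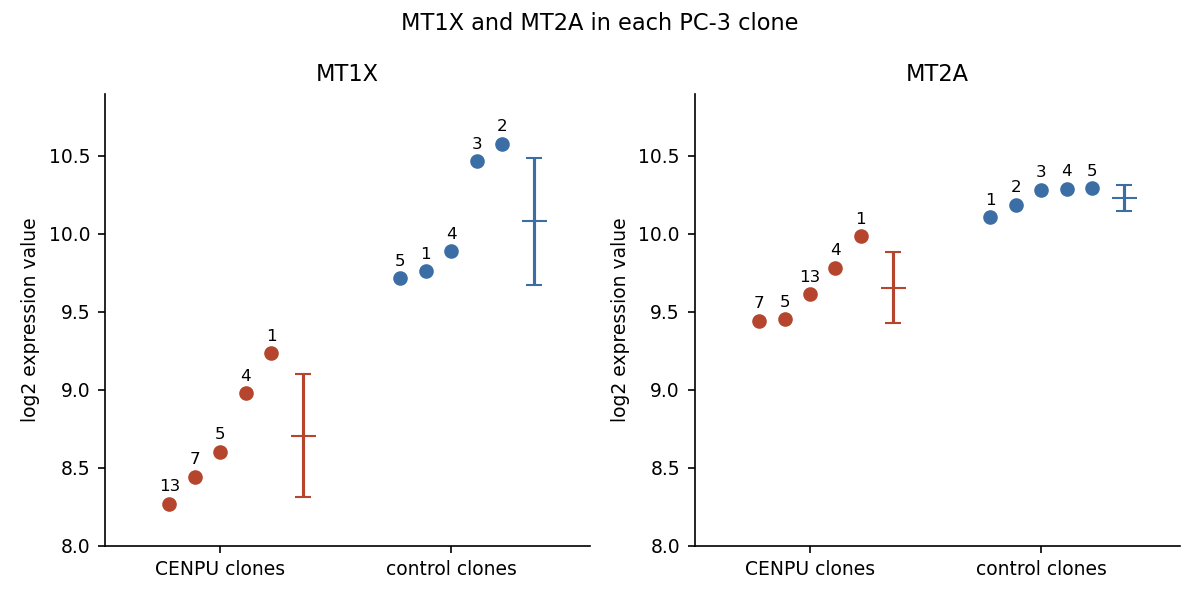
Deposited log2 expression value of MT1X (left) and MT2A (right) in each clone, ordered by level within the CENPU and control groups, with the clone number above each point and the mean and SD (n = 5) beside the points. The CENPU clones lie below all control clones for both genes, and the gap is wider for MT1X.

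CENPU itself averaged 9.34 ± 0.43 in CENPU clones and 6.26 ± 0.29 in control clones (SD, n = 5 each), so the labels matched the insert in every clone. CENPU was lowest in CENPU 5, at 8.70, and highest in CENPU 13, at 9.84, and these clones had MT1X at 8.60 and 8.27 and MT2A at 9.45 and 9.61. The clone highest in CENPU was thus the lowest in MT1X but not in MT2A. Across deviations of all 10 clones from their group means, Pearson's r with CENPU was -0.350 for MT1X and 0.388 for MT2A. Spearman's rho was -0.527 and 0.479, so the 2 genes differed in sign. These are descriptions, and a correlation within the 5 CENPU clones alone is not given.

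Of the remaining 9 metallothionein genes with a row, 0 passed in limma (adjusted p from 0.156 to 0.774). At an unadjusted p under 0.05 there was 1, and with trend and robust fitting 0. Their log2 differences lay between -0.39 and 0.22, with a median of -0.15, against -0.02 over all genes. MT1F had the lowest, at 4.06 ± 0.27 in CENPU clones and 4.45 ± 0.31 in control clones (SD, n = 5 each), a log2 difference of -0.39. The MT1E row, belonging to another ubiquitous isoform, read 5.13 ± 0.20 in CENPU clones and 5.34 ± 0.29 in control clones (SD, n = 5 each).

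MT1M and MT1B had differences above 0, of 0.22 and 0.13, and MT1H one of 0.06. MT1G differed by -0.23, MT3, the brain isoform, by -0.21, the pseudogene MT1L by -0.15, and MT4, known from stratified epithelium, by -0.09. The means of 8 of these 9 genes were below 5.82, the median of all gene means, MT4 being the exception at 7.42. No detection call was used here, so how many of these rows lie above background was not tested, and the lack of a call does not show that an isoform kept its level. Sequences of metallothionein genes are near-identical in parts, and signal shared between their probe sets, including those of MT1X and MT2A, is uncertain.

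**Figure D3:**
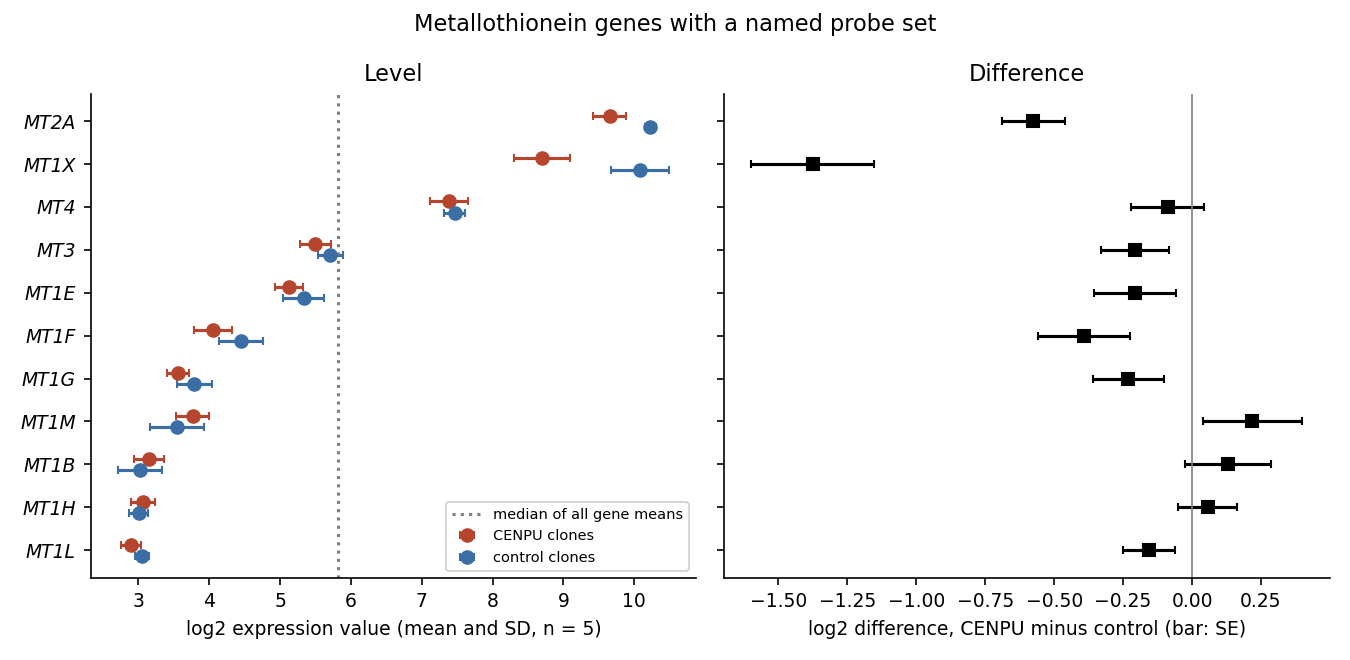
Left, mean log2 expression value with SD (n = 5) of each metallothionein gene in CENPU clones (red) and control clones (blue), with the median of all gene means dotted. Right, log2 difference of CENPU minus control with its standard error; MT1X at -1.38 and MT2A at -0.58 stand left of the other 9 genes, which lie between -0.39 and 0.22.

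The level of both genes moved with a score of each clone that also differs between the groups. With 1 array per clone, a property of the array and one of the clone cannot be told apart in it. For each clone a span score was computed, which is Spearman's correlation across protein-coding genes between genomic span and how far the gene departs in that clone from its 10-clone mean. A positive score means that long genes read high in that clone and short genes low. MT1X spans 1727 bases and MT2A 914, both in the shortest quintile of protein-coding genes (208 to 7857 bases). CENPU clones 1, 4, 5, 7 and 13 scored -0.153, -0.0406, 0.198, 0.319 and 0.361. Control clones 1 to 5 scored -0.0946, -0.355, -0.159, -0.277 and -0.173.

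Among CENPU clones the order of MT1X levels was exactly the reverse of the order of span scores. Across deviations of all 10 clones from their group means, Pearson's r between MT1X and the score was -0.789 and Spearman's rho -0.745. Without CENPU 1 and control 2, the 2 clones whose MT1X deviations lay farthest from the median deviation, r was -0.601. For MT2A the values were -0.763 and -0.745, and r was -0.477 without CENPU 1 and CENPU 7. These correlations are descriptions over clones that share the array normalization. A value at or below that of MT1X was reached by 7.69% of 11916 protein-coding genes, and by 9.47% for MT2A.

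With the span score as a covariate, a fit added after the values were seen, the log2 difference was -0.75 for MT1X and -0.31 for MT2A. Removal of the trend by loess left -1.25 and -0.44, and without CENPU 7, CENPU 13 and control 2 they were -1.02 and -0.50. Protein-coding genes of the shortest quintile had a median log2 difference of -0.11, with 200 lower (8.39%) and 52 higher. In the longest quintile the median was 0.13, with 41 lower (1.72%) and 273 higher. Among the 69 protein-coding genes with a span under 2000 bases and a mean of at least 8, the median was -0.16. Of these 69, 18 were lower (26.1%), MT1X and MT2A included, and 5 were higher. Among all genes with a mean of at least 8, 14.1% were lower. Of the 69, MT1X had the lowest difference and MT2A rank 8. The part of the span trend in the lower metallothionein level was not tested.

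**Figure D4:**
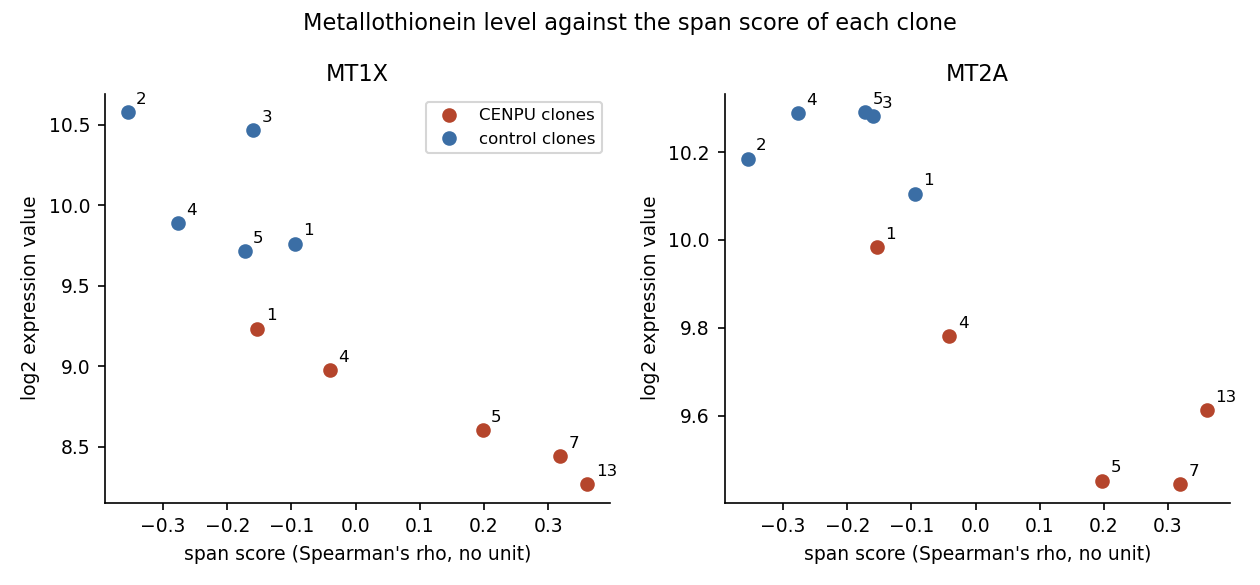
Log2 expression value of MT1X (left) and MT2A (right) against the span score of each clone, with clone numbers, CENPU clones in red and control clones in blue. CENPU 1, whose score of -0.153 lies within the range of the control clones, has the highest MT1X value (9.23) of the CENPU group.

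Genes whose levels resembled those of the metallothioneins were sought among 6831 protein-coding genes with a mean at or above the median. Over the 10 clones, separation of the groups included, MT1X was most like WDR74, a ribosome assembly factor (Pearson's r 0.986), SPHK1, the kinase that makes sphingosine 1-phosphate (0.978), the kinase gene MINK1 (0.977), TMEM101 (0.975) and CCDC9 (0.974). MT2A was most like SSU72, a phosphatase of RNA polymerase II (0.963), UBE2O, a ubiquitin-conjugating enzyme (0.962), SLC66A2 (0.956), the histone chaperone gene DAXX (0.952) and CDAN1 (0.950). MT1X and MT2A correlated with each other at 0.902, and 242 of the candidates were more like MT1X and 102 more like MT2A than that.

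For deviations from the group means, MT1X was most like WDR74 (0.973), ROMO1, a small mitochondrial membrane protein (0.965), TMEM208 (0.965), MINK1 (0.964) and NADSYN1, the NAD synthetase (0.962). MT2A was most like LIMS2 (0.942), the cystatin gene CST7 (0.930), RNF225 (0.929), the nucleolar protein gene NOL6 (0.925) and the fatty acid receptor gene FFAR3 (0.925). The correlation between MT1X and MT2A was then 0.552 (Spearman's rho 0.309), 0.434 without CENPU 1 and control 2, 0.286 without CENPU 1 alone and 0.145 with the span trend removed. All of these likeness values are over 10 clones and were the highest picked from many. The deviations of the like genes also correlated with the span score, from -0.358 for SSU72 to -0.861 for RNF225.

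The regulators of metallothionein genes were examined next, 6 of 10 listed genes being measured, of which 1 rose, 2 fell and 3 did not pass. Over all genes 5.31% rose and 4.79% fell, the shares to set beside the counts of this list and of those that follow. With 6 genes, 3 of them with a mean of at least 8, where 14.1% of genes fell, the counts of this list are a description. USF1, whose product binds metallothionein promoters in the mouse, read 8.27, 7.98, 7.94, 8.20 and 8.04 in CENPU clones 1, 4, 5, 7 and 13, against 8.53, 9.08, 8.72, 8.65 and 8.54 in control clones 1 to 5. All CENPU clones were thus below all control clones, and the log2 difference was -0.62 (SE 0.12, limma adjusted p = 0.0121). KEAP1, the inhibitor of NRF2, fell by 0.54 (limma adjusted p = 0.0177), and NFE2L2, which encodes NRF2, rose by 0.96 (limma adjusted p = 0.0479), with CENPU 1 at 4.66 inside the control range. The call of KEAP1 was lost without control 4, its differences without 1 clone running from -0.60 to -0.49, and that of NFE2L2 in 9 of the 10 fits without 1 clone, all but the one without CENPU 1, with differences from 0.83 to 1.25. MTF1, the zinc sensor, was named outside the rule after its values were seen, with 8.21 ± 0.35 in CENPU clones and 7.79 ± 0.32 in control clones (SD, n = 5 each), a difference of 0.41 that did not pass (limma adjusted p = 0.182). The median of the list was 0.17, against -0.02 over all genes.

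Zinc transport could hardly be described, because 0 of 14 importers of the SLC39 family and 1 of 11 exporters had a named row. That exporter, TMEM163, read 4.18 ± 0.18 in CENPU clones and 4.24 ± 0.10 in control clones (SD, n = 5 each), a difference of -0.06 that did not pass. Of 11 measured copper genes 1 rose and 10 did not pass. It was ATOX1, the chaperone that carries copper to the export pumps, with 7.39, 7.32, 7.38, 7.38 and 7.20 in CENPU clones 1, 4, 5, 7 and 13, against 6.85, 7.02, 7.00, 6.89 and 6.95 in control clones 1 to 5. The groups did not overlap, and the log2 difference was 0.39 (SE 0.08, limma adjusted p = 0.0143). ATOX1 kept its call in every fit without 1 clone. It did not pass after quantile normalization (0.31), with the span score as a covariate (0.46) or with a block by clone number (0.47). The iron list had 8 measured members, of which LCN2, a siderophore-binding protein, fell by 1.31 and 7 did not pass.

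In the lists of NRF2, glucocorticoid, IL-6 and hypoxia genes, which stand for known inducers of metallothioneins, 6 of 54 distinct measured genes passed (11.1%), a share near the 10.1% of all genes. The lists were not matched to all genes by mean, and of the 2432 genes with a mean of at least 8, 14.1% were lower. Of 14 measured NRF2 and glutathione genes, the glutathione peroxidase gene GPX1 fell by 0.39 (limma adjusted p = 0.0359) and 13 did not pass, HMOX1 (0.33) and TXN (0.73) among them. Of 11 measured glucocorticoid-responsive genes DUSP1 fell by 0.51, BCL6 rose by 0.82 and 9 did not pass, with a median of 0.05. Among 17 IL-6, STAT3 and acute phase genes JUNB and HAMP, which encodes hepcidin, fell, by 0.99 and 0.39, OSMR, a receptor subunit, rose by 1.02, and 14 did not pass, with a median of -0.14. None of 12 hypoxia genes passed in limma, against 3 at an unadjusted p under 0.05 and 0 with trend and robust fitting.

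Of 10 measured heat shock genes, which cadmium and high zinc also induce, 2 fell, 1 rose and 7 did not pass. HSPA1A, the inducible HSP70 gene, read 11.48, 11.80, 11.70, 11.62 and 11.58 in CENPU clones 1, 4, 5, 7 and 13, against 12.21, 12.28, 12.26, 12.38 and 12.19 in control clones 1 to 5. The groups stood apart, and the log2 difference was -0.62 (SE 0.09, limma adjusted p = 0.00371). Its near-identical neighbour HSPA1B differed by -0.54, and signal cannot be assigned to one of them with certainty. The co-chaperone gene BAG3 rose by 0.61.

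In all, 89 distinct genes of these 10 lists were measured, of which 9 fell (10.1%, against 4.79% of all genes) and 5 rose (5.62%, against 5.31%), with a median log2 difference of -0.01. Of the 2432 genes with a mean of at least 8, 14.1% were lower, and the lists were not matched to all genes by mean. HSPA1A and HSPA1B, whose signal cannot be told apart with certainty, count as 2 of the 9. Calls of 6 of these 14 genes (ATOX1, HSPA1A, HSPA1B, JUNB, LCN2 and USF1) were kept in every fit without 1 clone. Without CENPU 7, CENPU 13 and control 2 together 9 of the 14 did not pass, JUNB among them (limma adjusted p = 0.0597). BCL6, DUSP1, GPX1, HAMP and OSMR did not pass without CENPU 7, without CENPU 13 or without control 4. DUSP1 also lost its call without CENPU 5, OSMR without CENPU 5, control 2 or control 3, GPX1 without CENPU 5 or controls 2, 3 or 5, BCL6 without any control clone, and HAMP in all fits but the one without CENPU 4. BAG3 did not pass without CENPU 13, control 2, control 3 or control 4. In these fits the differences ran from 0.62 to 0.93 for BCL6, -0.57 to -0.42 for DUSP1, -0.46 to -0.35 for GPX1, -0.45 to -0.33 for HAMP, 0.81 to 1.15 for OSMR and 0.49 to 0.71 for BAG3. With the span score as a covariate 1 of the 14 passed, HSPA1A, with a difference of -0.60 (limma adjusted p = 0.0391).

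**Figure D5:**
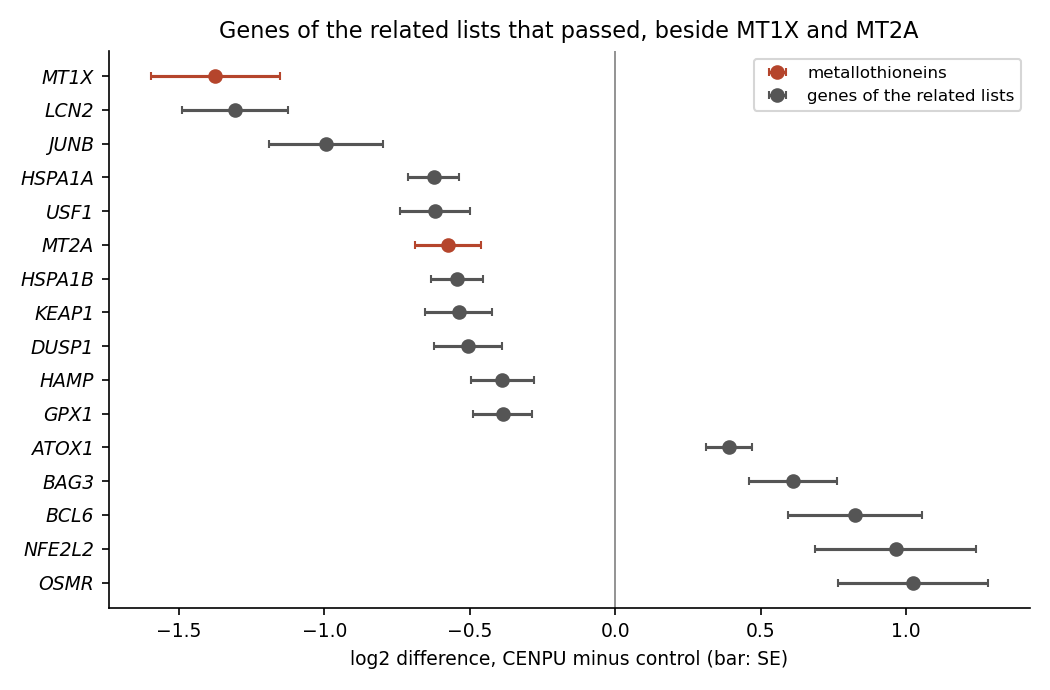
Log2 difference of CENPU minus control with its standard error for the 14 genes of the metal, redox, hormone and stress lists that passed, in grey, with MT1X and MT2A in red for scale. Both directions occur, from LCN2 at -1.31 to OSMR at 1.02.

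Neighbours of the metallothionein cluster were counted to show the region around it. Of the 10 protein-coding genes on either side in the RefSeq order, 11 were measured, 1 fell and 10 did not pass, where 4.79% of all genes fell. The median of these 11 was 0.05 on the log2 scale, against -0.02 over all genes. BBS2, the nearest measured gene before the cluster, differed by 0.57 (limma adjusted p = 0.129), and NUP93, a nucleoporin and the nearest after it, by 0.02 (limma adjusted p = 0.932). CPNE2 fell by 0.58 (limma adjusted p = 0.0486), and did not pass in 8 of the 10 fits without 1 clone, those without CENPU 1 and control 2 being the exceptions, with differences from -0.67 to -0.45.

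The deposited table held 53617 probe sets with array medians from 4.62 to 4.76, and no 2 arrays were identical. Epithelial keratin rows KRT18 and KRT19 read 10.61 ± 0.35 and 10.87 ± 0.26 in CENPU clones and 10.82 ± 0.15 and 10.53 ± 0.27 in control clones (SD, n = 5 each). KRT8 was lower, at 6.73 ± 0.20 in CENPU clones and 6.76 ± 0.25 in control clones (SD, n = 5 each). The androgen response genes KLK3 and KLK2 averaged 5.57 and 5.59 in CENPU clones and 5.61 and 5.59 in control clones. The median of all gene means was 5.82. Rows of the fibroblast genes DCN and LUM and the leukocyte gene CD14 had means from 2.73 to 4.19 in CENPU clones and from 2.81 to 4.17 in control clones. The epithelial marker EPCAM ran from 5.97 to 7.62 in CENPU clones and from 5.74 to 6.12 in control clones, a log2 difference of 0.85 that did not pass (limma adjusted p = 0.0839). It is the 1 marker with an unadjusted p under 0.05, and it passed as higher with array weights, without CENPU 1 or without CENPU 7. None of the 9 measured marker genes passed in limma. With trend and robust fitting 0 passed.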

How the data were processed

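RNA of 10 PC-3 clones was hybridised to 1-channel Affymetrix arrays after biotin labelling. The values are log2 expression values deposited by the authors, produced with RMA and Partek as far as the submitters' processing notes name tools, with no version. Their range, 1.65 to 15.03, is the basis for calling the scale log2. Arrays have no total count, so their number limits the precision, and RMA removes any shift that most genes share.

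A platform table gave 1 gene symbol for 16098 of 53617 rows and none for 37519, and all 16098 matched RefSeq (GRCh38.p14) by gene ID. No source used here names the genome build of the array annotation. A gene was represented by its row of highest mean. Each row was tested with limma 3.58.1 (R 4.3.3), lmFit and eBayes without covariates, with Benjamini-Hochberg adjustment over the 16098 rows and a call at an adjusted p under 0.05. The fit was also run on simulated data with independent noise in each row. Those data held no trend shared across an array, so that run does not bear on how the span trend affects the calls. Clones are separate isolates per the labels. The p-values set the difference of the groups against the spread within groups, which limma moderates over all rows. With 1 array per clone, that spread includes variation between arrays.

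The members, lists and tests were chosen with earlier results of these data known. Named were all metallothioneins and, in each other list, the genes that passed and up to 4 in all by smallest p; of the neighbours on chromosome 16, those that passed and the nearest on each side; and the 5 genes most like MT1X and MT2A by each measure. Alternatives were other scalings, a filter on dim rows, all rows, array weights, trend and robust fitting, other thresholds, the mean of a gene's rows, a block by clone number, removal of the span trend, and leaving out clones. No scanner files were used here.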

Additional observations from a re-analysis of the deposited data

Results flagged for a closer look

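In 148 groups of 5 clones, over 74 named genes, 10 held 1 clone far from the other 4 by Dixon's ratio, and chance flags about 1 in 20 groups. Control 2 was involved in 4 of them. It had the highest MT1F value of the control clones, 5.00 against 4.22 to 4.38 in the others, and the highest MT1M value, 4.23 against 3.32 to 3.43. Its KDM3A value was the lowest, 5.59 against 6.04 to 6.19, as was its BNIP3L value, 9.24 against 9.84 or more. Both are hypoxia list genes. Control 2 also had the highest MT1X value and the lowest span score. Control 1 was low in SLC66A2 (8.26 against 8.34 to 8.38), LIMS2 (5.96 against 6.02 to 6.04), RNF225 (6.98 against 7.23 to 7.28) and TMEM163 (4.07 against 4.26 to 4.32), the first 3 of which had been picked for their likeness to MT2A, which was also lowest in control 1. KLK3 was low in control 3 (5.38 against 5.63 to 5.70), and KRT8 was high in CENPU 4 (7.07 against 6.60 to 6.68).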

How the results depend on the processing

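The log2 differences of MT1X and MT2A stayed below 0 in every alternative run, but their calls did not all hold. Against 2, the number of metallothionein genes called lower was 0 with the span score as a covariate, 0 with the replicate block and 1, MT1X, without CENPU 7, CENPU 13 and control 2. At an adjusted p under 0.01 in limma, MT1X passed and MT2A did not. Both genes were picked as lower in these same arrays, so none of these calls is a test of them. With the span score as a covariate the differences of MT1X and MT2A were -0.75 and -0.31, with 70 genes higher and 236 lower over all genes. In the fit with clone number as a replicate block MT1X was -0.85 and MT2A -0.49, with 22 genes higher and 33 lower. Only the numbers 1, 4 and 5 occur in both groups, so that fit rests on 6 clones, and the numbers did not pair them (correlations of deviations -0.375, 0.104 and 0.0249). Quantile normalization gave -1.45 and -0.66. Over all genes, 1303 were higher with array weights, 130 were higher and 123 lower at an adjusted p under 0.01, and 1408 higher and 1180 lower under 0.10, against 791 and 713. Without control 2, CENPU 7 and CENPU 13 there were 209 higher and 261 lower. Leaving out 1 clone gave 297 to 1463 higher, the extremes being without control 4 and without CENPU 1, and 316 to 1008 lower. Without 1 clone the differences were -1.51 to -1.25 for MT1X and -0.66 to -0.52 for MT2A. The cause of these moves was not tested.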

Other observations

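Most measured genes whose promoters are rich in MRE cores did not pass, and the calls went in both directions. With at least 5 cores in the 300-base window 23 genes were measured, MT2A and MT1H included. Of these, 3 were lower in CENPU clones (13.0%, against 4.79% of all genes) and 1 was higher (4.35%, against 5.31%). MT2A, 1 of the 3, was picked as lower. The other 19 did not pass, and the median of all 23 was -0.04 on the log2 scale. Besides MT2A, the ubiquitin-conjugating enzyme gene CDC34 fell by 0.75 and HSF4, a heat shock factor known from the lens, by 0.41, while RTN3, which encodes a reticulon of the endoplasmic reticulum, rose by 0.93. Calls of CDC34, HSF4 and RTN3 were not followed in the fits without 1 clone or with the span score. Leaving out MT1X and MT2A, which were picked as lower, 4 of 79 genes with 4 or more cores were lower (5.06%) and 4 higher. With 3 cores 26 of 241 were lower (10.8%) and 20 higher (8.30%), and with 0 cores 333 of 6960 were lower (4.78%) and 396 higher (5.69%). These genes were grouped after the metallothionein values were known.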
